A study of Mus musculus with 2 samples.

Results

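RNA of 8 genes used as B cell markers was followed on 2 whole-transcript arrays of mouse CD8 T cells. The genes are Cd79a, Cd79b, Cd180, Fcer2a, Ms4a1, Cd22, Pax5 and Blk, taken by gene symbol from the authors' annotated table. Each symbol matched 1 probe set, so all 8 were measured, among 21877 genes in all. The untreated array holds CD8 T cells cultured with Tc1 cytokines and nothing added. The cholesterol array holds CD8 T cells given the same cytokines together with cholesterol. Tc1 cytokines drive CD8 T cells toward interferon gamma production and killing. The sources used here give no mouse strain, age, tissue of origin, purity of the CD8 cells, or dose and time of cholesterol. With 1 array per condition there was no replicate error and no test was possible. Every difference below compares this pair of arrays and not the conditions, and precision is limited by there being only 2 arrays.

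B cells recognise antigen through a membrane immunoglobulin that signals through the paired chains CD79A and CD79B, whose cytoplasmic tails are phosphorylated by Src-family kinases such as BLK. Coreceptors tune this signal, and CD22 damps it. The transcription factor PAX5 holds cells in the B lineage and keeps genes such as Cd79a switched on. Mature T cells do not need this programme, so its RNA in a CD8 culture is read here as a measure of B cell transcripts on each array. The 8 genes are not all surface proteins: Pax5 encodes a nuclear factor and Blk a cytosolic kinase.

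Promoters of Cd79a, Pax5 and Cd180, the members with the lowest log2 differences, are shown first, with that of Cd22 as a member that differed less. The windows run from 250 bases before to 50 bases after the annotated start, come from RefSeq on build GRCm38.p6 and are written 5′ to 3′ on the gene's own strand. Promoter windows were matched for 5 of the 8 members, the 4 shown and Fcer2a. Capitals mark matches, on either strand, to a B cell promoter motif: the octamer ATGCAAAT bound by OCT factors, CCCNNGGG for EBF1, or GAGGAA for PU.1 and other ETS factors.
Cd79a, chr7:24897247-24897546, plus strand: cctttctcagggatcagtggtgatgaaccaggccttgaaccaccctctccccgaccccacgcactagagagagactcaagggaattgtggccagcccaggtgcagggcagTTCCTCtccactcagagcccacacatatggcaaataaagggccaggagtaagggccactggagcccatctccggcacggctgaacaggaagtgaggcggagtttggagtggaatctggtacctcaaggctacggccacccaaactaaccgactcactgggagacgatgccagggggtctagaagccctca
Pax5, chr4:44710645-44710944, minus strand: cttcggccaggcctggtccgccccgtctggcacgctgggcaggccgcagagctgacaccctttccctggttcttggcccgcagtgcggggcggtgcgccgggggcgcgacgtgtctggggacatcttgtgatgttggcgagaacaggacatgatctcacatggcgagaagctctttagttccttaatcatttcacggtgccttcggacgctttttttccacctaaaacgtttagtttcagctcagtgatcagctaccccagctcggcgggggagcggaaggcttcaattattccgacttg
Cd180, chr13:102693297-102693596, plus strand: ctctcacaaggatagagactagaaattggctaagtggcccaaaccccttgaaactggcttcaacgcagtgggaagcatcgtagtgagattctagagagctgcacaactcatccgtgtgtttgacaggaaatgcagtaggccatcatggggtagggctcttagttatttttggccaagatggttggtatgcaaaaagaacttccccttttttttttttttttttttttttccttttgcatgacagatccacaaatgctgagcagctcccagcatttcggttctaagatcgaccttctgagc
Cd22, chr7:30878979-30879278, minus strand: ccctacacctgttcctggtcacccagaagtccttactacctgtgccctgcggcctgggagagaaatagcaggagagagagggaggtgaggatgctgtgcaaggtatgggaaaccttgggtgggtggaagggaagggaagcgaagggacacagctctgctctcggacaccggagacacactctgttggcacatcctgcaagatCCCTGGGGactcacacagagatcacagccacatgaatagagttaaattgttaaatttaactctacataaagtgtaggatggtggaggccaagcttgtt

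The Cd79a window held 1 GAGGAA match, on the opposite strand, with its first base at position -140 from the start. The Cd22 window held CCCNNGGG at 1 place, from position -48, where the palindromic letters match on both strands. None of the 3 motifs occurred in the windows of Pax5, Cd180 or Fcer2a, and the octamer occurred in none of the members' windows. The 3 motifs did not overlap one another there. Over all 32851 promoter windows, 1.74% held the octamer, 13.7% held CCCNNGGG and 28.3% held GAGGAA. These matches describe the letters of the windows and do not show binding.

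Signals were read against 5222 negative control probe sets on the same array. Their median signal was 12.7 untreated and 12.8 with cholesterol, and their 95th percentile, called the control limit below, was 130.3 and 121.8. The controls have a long upper tail, reaching 9349 and 9157. Of all genes, 33.2% exceeded the control limit on the untreated and 35.0% on the cholesterol array. Signals of different probe sets depend on the probes as well as on the RNA, so levels are compared within a gene. A fold is given only where the brighter signal exceeds the control limit, and as a lower bound where the dimmer one does not. Counts of genes past a ratio of 1.5-fold or 2-fold use the signals as deposited, at any level, and for a gene under the control limit they do not state a fold of its RNA. Differences are log2 of the cholesterol signal minus log2 of the untreated signal.

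The antigen receptor chains were the members above the control limit. Cd79a, the alpha signalling chain, read 250.7 untreated and 113.2 with cholesterol (log2 difference -1.15). The untreated signal was 1.92 times its control limit and the cholesterol signal fell short of its own, at 0.929 times, so Cd79a was at least 2.06-fold lower with cholesterol. Only 0.233% of all genes had a difference as low. Cd79b, the partner chain, had signals of 187.0 and 148.6, above the limit on both arrays, and was 1.26-fold lower (log2 difference -0.33). Differences as low were common, at 12.7% of genes. The chains of the same heterodimer thus differed between the arrays by unequal amounts, and with single arrays the gap between them has no error.

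**Figure D1:**
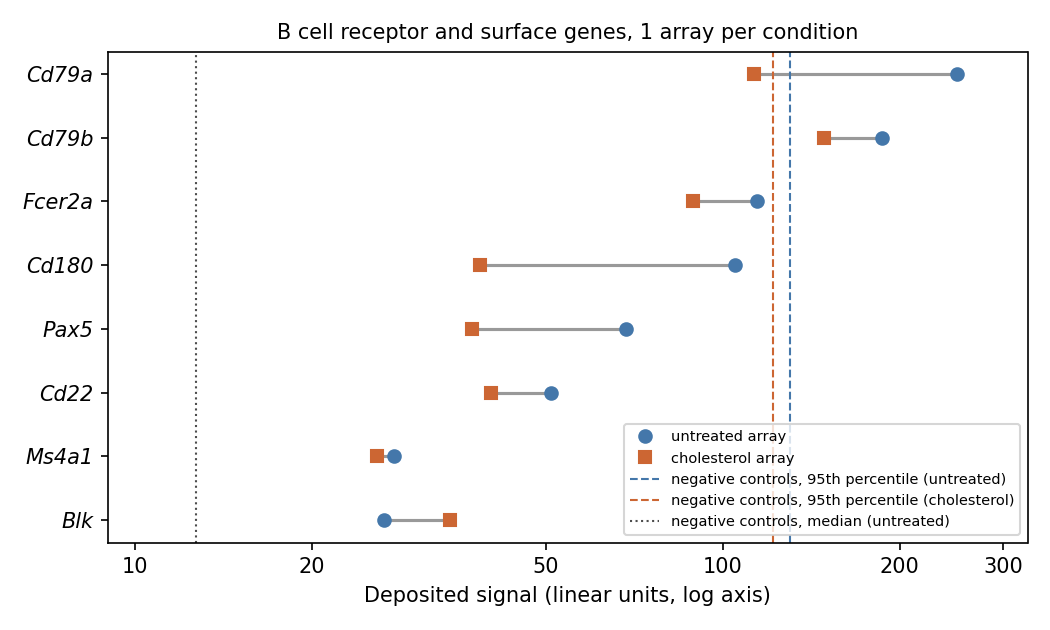
Deposited signal of each of the 8 genes on the untreated array (circles) and the cholesterol array (squares), on a log axis, with the 95th percentile of the negative controls of each array (dashed) and their untreated median (dotted). Cd79b exceeds the dashed lines on both arrays, Cd79a only without cholesterol, and the other 6 genes on neither; only Blk is higher with cholesterol.

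The other surface receptors were under the limit on both arrays. Cd180, a Toll-like receptor relative found on B cells and also on macrophages and dendritic cells, had signals of 105.0 without and 38.6 with cholesterol. Its log2 difference of -1.44 was the largest of the 8, and 0.0457% of all genes had one as low. Both signals were under the control limit, at 0.806 and 0.317 times it, so no fold is given. Fcer2a, the low-affinity IgE receptor CD23 of mature B cells, had signals of 114.2 and 89.0 (log2 difference -0.36), also under the limit on either array. Cd22, an inhibitory sialic acid-binding coreceptor, had signals of 51.0 and 40.3 (log2 difference -0.34). Genes with differences as low as those of Fcer2a and Cd22 made up 11.2% and 12.2% of all genes, so these members were lower by amounts common among all genes. Ms4a1, which encodes the B cell antigen CD20, had nearly the same signal on both arrays, 27.6 and 25.8, with a log2 difference of -0.097.

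The intracellular members went opposite ways. Pax5 read 68.6 untreated and 37.5 with cholesterol (log2 difference -0.87), and 1.01% of all genes had one as low. Blk, a Src-family kinase of B cells that is also found in some gamma-delta T cells, was the exception to the direction of the others. Its signal was 26.5 on the untreated and 34.4 on the cholesterol array (log2 difference 0.38). Neither gene reached the control limit on either array.

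Position among the negative controls was read as a measure of the members' signal over background on each array. On the untreated array, 2 of the 8 members exceeded the control limit, 25.0% of them against 33.2% of all genes. On the cholesterol array 1 did, 12.5% against 35.0%. These counts depend on the limit. Against the 95th percentile of the 23 antigenomic background controls, 201.4 and 211.6, Cd79a alone exceeded it without cholesterol and 0 members with it, and against the 99th percentile of the negative controls 0 members did on either array. None of the 8 lay in the lower part of the control range. The lowest, Blk, was brighter than 73.1% of negative controls on the untreated array, and the lowest with cholesterol, Ms4a1, was brighter than 72.5%. Against all genes, the same signals were brighter than only 38.6% and 39.1%. Some genes of non-haematopoietic tissues, given below, had signals as high as these. The median member exceeded 91.9% of negative controls without and 82.4% with cholesterol. The median signal of the members was 84.9 without and 39.5 with cholesterol, beside 48.4 and 47.3 over all genes. Cd180 moved from above 93.9% to above 82.0% of controls and Pax5 from above 90.0% to above 81.4%. Cd79a moved from above 97.2% to above 94.7%.

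**Figure D2:**
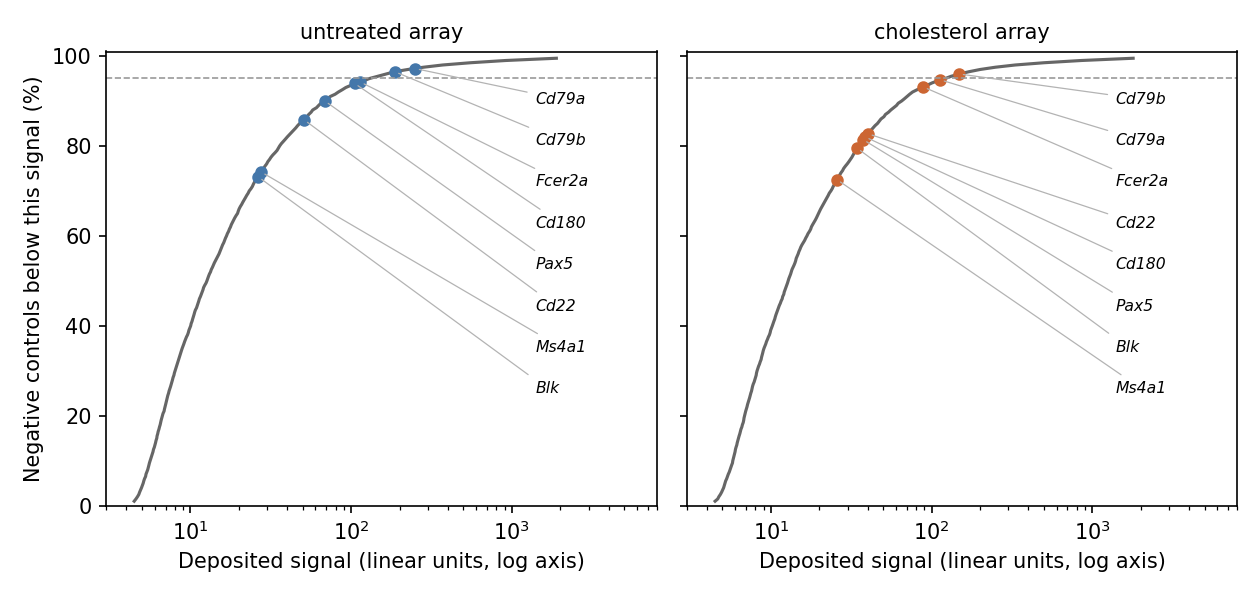
Share of the 5222 negative controls below a given signal (curve, y axis in percent, x axis signal on a log scale) on each array, with the 8 genes placed on it and the 95th percentile dashed. Without cholesterol 2 genes sit above the dashed line and the others between 73.1% and 94.2% of controls. With cholesterol 1 gene sits above it and the others between 72.5% and 94.7%.

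As a check of the control limit, a list of 30 genes of liver, pancreas, muscle, kidney, nerve, epithelium, lung and germ cells, such as Alb and Myh6, had 0 members above it on either array. Signals of these 30 genes ran from 6.4 to 63.4 without and from 7.4 to 77.3 with cholesterol. Those of Cd22, Ms4a1 and Blk on both arrays, and of Cd180 and Pax5 with cholesterol, lay within these ranges. Such signals do not by themselves show B cell RNA. In the deposited signals, 3 of these 30 genes were past a ratio of 1.5-fold lower with cholesterol and 0 past 2-fold lower. Past 1.5-fold higher was 1 of the 30. Ratios past 1.5-fold lower thus also occurred among dim genes of other tissues, and the shares given below for B cell genes are read beside this.

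Of the 8 members, 7 were lower and 1 was higher with cholesterol, with a median log2 difference of -0.35 against 0 over all genes. Of all 21877 genes, 10429 were lower, 10894 higher and 554 equal. In the deposited signals, 3 of 8 (Cd79a, Cd180 and Pax5), or 37.5%, were past a ratio of 1.5-fold lower, where 3.91% of all genes were. Past 2-fold lower were 2 of 8 (Cd79a and Cd180), where 0.498% of all genes were. Of these 3, only Cd79a exceeded the control limit on either array. The members were chosen with earlier results of these data known, so their shares beside those of all genes are not independent of that choice. With signals under the limit set to it, 1 of 8 (Cd79a) was past 1.5-fold and past 2-fold lower, beside 0.347% and 0.0686% of all genes, and the median was -0.096. None of the 8 was past 1.5-fold higher in the deposited signals, where 2.73% of all genes were. Dim genes scatter more, so the same shares were taken over the 6908 genes whose mean signal lay between those of the dimmest and brightest members, 26.7 to 168.5. There, 4.88% of genes were past 1.5-fold lower, 0.811% past 2-fold lower and 4.10% past 1.5-fold higher. Differences of negative controls in that range spread more widely than those of genes, with a central 95% from -1.22 to 1.09 against -0.73 to 0.68. Of these 1172 controls, 14.8% were past 1.5-fold lower. Cd180 lay outside the central 95% of these controls, and Cd79a and Pax5 lay within it but outside that of the genes. The summed signal of the 8 genes was 830.5 without and 527.5 with cholesterol. Of the 8, 6 were under the control limit on both arrays, and whether their signals reflect B cell RNA was not tested. Were B cell RNA lower, fewer B cells and less B cell RNA per cell could not be told apart in these bulk samples.

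**Figure D3:**
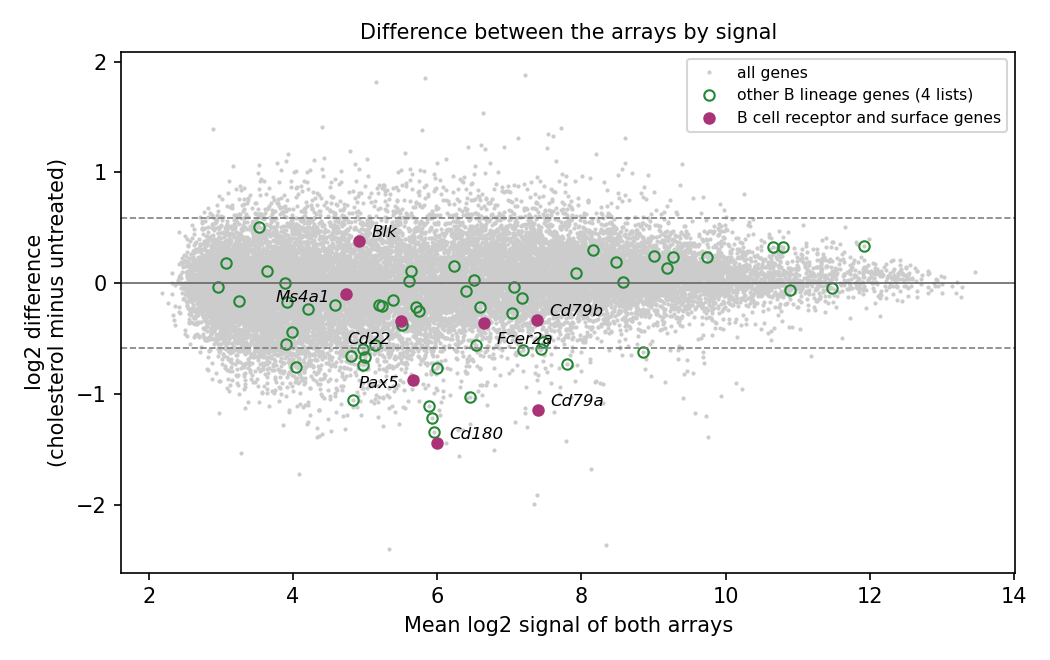
Log2 difference (cholesterol minus untreated, y axis) against the mean log2 signal of both arrays (x axis) for all 21877 genes (grey), the 8 B cell receptor and surface genes (filled) and 57 other B lineage genes (open), with 1.5-fold differences dashed. Cd79a, Cd180 and Pax5 lie below the lower dashed line, and the other 5 members lie between the lines.

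Other genes of the B lineage were read from 4 further lists, of which 57 of 63 listed symbols had a probe set. Of the 57, 38 were lower and 19 higher, with a median log2 difference of -0.20. In the deposited signals, 15, or 26.3%, were past 1.5-fold lower and 5 of these past 2-fold lower, while 0 were past 1.5-fold higher, beside 3.91%, 0.498% and 2.73% of all genes. The number past 1.5-fold lower was 16 after quantile normalization and 12 after centring each array on its median. These lists too were chosen with earlier results of these data known.

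Of 17 components of B cell receptor signalling, 11 were lower and 6 higher with cholesterol, and 4 were past a ratio of 1.5-fold lower. The 6 genes under the control limit on both arrays were all lower, while those above it went both ways. Fcgr2b, the inhibitory IgG receptor, had signals of 41.2 without and 19.8 with cholesterol (log2 difference -1.05), and the adaptor gene Blnk had 40.5 and 25.5 (-0.67). Both were under the control limit on both arrays. Among those above it, the kinase gene Syk (179.7 without, 118.5 with cholesterol) was at least 1.47-fold lower, and Lyn, a Src-family kinase, was 1.45-fold lower. The brighter genes went both ways. Ifitm1 was 1.26-fold higher, Ptpn6, the phosphatase SHP-1, was 1.26-fold higher, and the tetraspanin Cd81 was 1.04-fold lower. Prkcb, Dapp1, Pik3ap1 and Cd72 were also higher, and every higher gene of the list was above the limit on both arrays. The list's median was -0.16, and over its 12 genes at or above the median mean signal of all genes it was -0.024.

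Transcription factors of the lineage differed in both directions, 6 lower and 5 higher. Past 1.5-fold lower in the deposited signals were 5 of 11. Mef2c had signals of 92.5 without and 39.8 with cholesterol (log2 difference -1.22), and Pou2af1, the octamer coactivator OBF-1, had 125.0 and 61.3 (-1.03). Spib (-0.73) and Bcl11a (-0.75) were also lower, and all 4 were under the control limit on both arrays. Irf8, which dendritic cells and activated T cells also express, was 1.54-fold lower at signals of 574.9 and 372.8, above the limit. Ebf1, the pioneer factor of the lineage, had signals of 112.8 and 76.6 (-0.56), under the limit. Pou2f2, which encodes OCT2, was under the limit too and had signals of 71.1 and 79.3 (0.16). Ets1 (1.25-fold), Ikzf3 (1.23-fold), Tcf3 (1.18-fold) and Bach2 (1.17-fold), factors that T cells share, were higher with cholesterol. The list's median was -0.56, and over its 9 genes at or above the median mean signal of all genes it was 0.16.

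Other surface and cytosolic B cell genes were mostly lower, 14 of 17, with 4 past 1.5-fold lower in the deposited signals. Tnfrsf13c, the BAFF receptor, was the clearest of them, 1.65-fold lower from 287.8 to 174.0, above the control limit on both arrays. Cd83, an activation antigen of B cells and dendritic cells that activated T cells also make, was 1.51-fold lower. Ly6d, a marker of early B lineage commitment, had signals of 86.8 and 40.3 (log2 difference -1.11), and Fcmr, the IgM Fc receptor, had 83.2 and 49.0 (-0.76), both under the limit. Tnfrsf13b, the receptor TACI, was 1.10-fold higher, and the tetraspanin Cd37 was 1.03-fold lower at 2890 without and 2811 with cholesterol.

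Immunoglobulin secretion and precursor genes gave no signal above the control limit. All 12 measured genes of this list were under it on both arrays, with signals of at most 90.5 without and 92.5 with cholesterol. Of the 12, 7 were lower and 5 higher, with a median log2 difference of -0.095. Jchain, the joining chain of secreted IgM and IgA, had signals of 42.6 and 28.9 (log2 difference -0.56), and Mzb1, a chaperone of plasma cells, had 35.1 and 22.3 (-0.66). Sdc1, the brightest gene of the list, had nearly the same signal on both arrays, 90.5 and 92.5 (0.031). The recombinase genes Rag1 and Rag2 had 7.9 and 9.7 without and 9.0 and 13.8 with cholesterol, below the median negative control except for Rag2 with cholesterol. The symbols Ighm, Ighd, Igkc and Iglc1 had no match, so heavy and light chain constant regions were not analysed here.

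**Figure D4:**
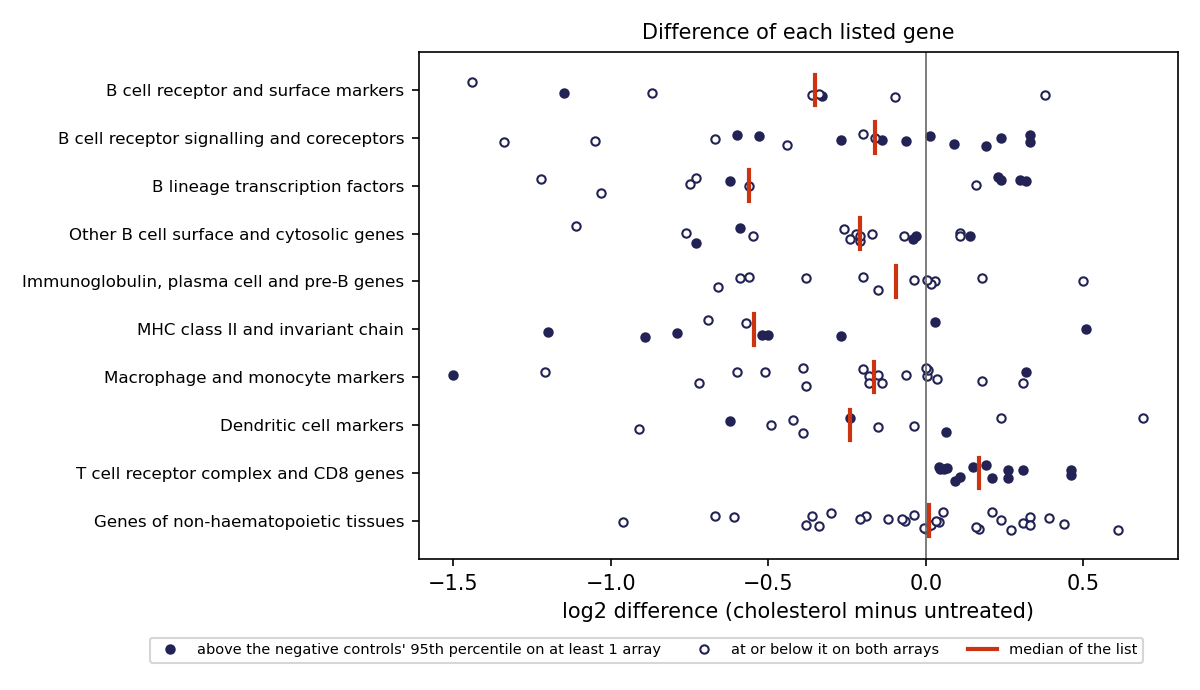
Log2 difference (cholesterol minus untreated, x axis) of each measured gene in 10 lists (rows), filled where the gene exceeded the control limit on at least 1 array and open where it did not, with the list's median as a bar. The medians of the first 8 lists are below 0, the T cell genes all lie above 0 (12 of 14 after quantile normalization), and the genes of non-haematopoietic tissues lie on both sides with a median near 0.

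Markers of other cells moved on the same arrays, and their part in the B cell differences was not tested. MHC class II genes, which B cells share with macrophages and dendritic cells, were lower in 8 of 10 cases, with a median log2 difference of -0.54 and summed signals of 3592 without and 2306 with cholesterol. Past 1.5-fold lower in the deposited signals were 4 of the 10, or 40.0%. Cd74, the invariant chain, was 2.29-fold lower, H2-Aa 1.85-fold and H2-Ab1 1.43-fold, all above the control limit on both arrays, while H2-Oa was 1.43-fold higher. Of 20 macrophage and monocyte markers, 13 were lower, 6 higher and 1 equal (median -0.17, summed signals 967 and 781), and 18 did not reach the limit on either array. Mmp12, a macrophage metalloprotease, was at least 1.53-fold lower, whereas Cd68 was 1.25-fold higher. Past 1.5-fold lower in the deposited signals were 4 of the 20, 2 of these past 2-fold lower, and 0 were past 1.5-fold higher. Mpeg1 had signals of 55.1 without and 23.9 with cholesterol (log2 difference -1.21). Lyz2 had 78.8 and 47.7 (-0.72). The defining markers differed less, Csf1r at 18.0 and 15.9 (-0.18) and Adgre1 at 20.1 and 20.6 (0.035). Mpeg1, Lyz2, Csf1r and Adgre1 were under the control limit on both arrays. Of 11 dendritic cell markers, 8 were lower (median -0.24, summed signals 4485 and 4046). Batf3 was 1.54-fold lower and Cd80 1.18-fold lower, both also expressed by activated T cells, Ccr7 was 1.05-fold higher, and Itgax (CD11c) was under the limit at 14.1 and 13.8.

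The T cell identity of both arrays was plain. All 14 genes of the T cell receptor complex and CD8 exceeded the control limit on both arrays, among them Cd3e (4829 without, 5153 with cholesterol) and Cd8a (3274 and 3780). All 14 were higher with cholesterol, with a median log2 difference of 0.17 and a range of 0.04 to 0.46. After quantile normalization 12 were higher and 2 lower. Cd3d and Zap70, the kinase of the T cell receptor, were each 1.37-fold higher, the largest differences of the list. Their summed signal was 24611 without and 28049 with cholesterol. The 8 B cell genes were thus lower, with 1 exception, on the array where T cell genes were slightly higher.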

How the data were processed

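Total RNA of both cultures was extracted with Trizol and biotin-labelled as whole-transcript sense target, per the labels' protocols. The authors deposited linear signal intensities for every probe set, and a ratio of cholesterol over untreated signal. The ratio equalled the quotient of the intensities for all 22206 annotated probe sets within 1e-08, and the series value table held identical intensities. The sources used here do not give the background correction or normalization. A signal compressed by an uncorrected background would understate folds of dim genes.

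Of 22206 annotated probe sets, 31 with a missing, paired or date-like symbol were left out, leaving 21877 genes. Where a gene had several probe sets, the brightest by mean log2 signal stood for it. Intensities were converted to log2 with Python 3.11.15. No p-value was computed, because each group has 1 array. The log2 differences of paired probe sets of 1 gene, for 101 genes at least as bright as the dimmest member, had a median disagreement of 0.14, with 0.59 at the 95th percentile. Exactly equal signals on both arrays were found for 554 genes and 0 of the members.

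The members and gene lists were chosen with earlier results of these data known. Named genes are all 8 members and, from each list, the 2 brightest and the 2 with the largest difference among those above the negative controls' 95th percentile. B lineage genes above it may be named in addition, and the remaining listed genes are counted but not reported by name. Fcgr2b, Blnk, Mef2c, Pou2af1, Spib, Bcl11a, Ebf1, Ly6d, Fcmr, Jchain, Mzb1, Sdc1, Rag1, Rag2, Csf1r, Adgre1, Mpeg1, Lyz2, Itgax, H2-Oa, Pou2f2, Alb and Myh6 were named after their values were seen. Gene positions and promoters come from RefSeq on GRCm38.p6. Counting steps were tested on simulated data. Alternatives covered scaling, background, probe sets, control thresholds and filters on dim genes.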

Additional observations from a re-analysis of the deposited data

Results flagged for a closer look

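Among probe sets outside the comparison, the 1324 positive controls stood slightly above the untreated array, with a median log2 difference of 0.067. This was seen in data that entered no comparison here.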

How the results depend on the processing

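Quantile normalization and centring each array on its median left 7 members lower and 1 higher, 3 past 1.5-fold and 2 past 2-fold lower, with a median log2 difference of -0.40 and -0.32. Averaging probe sets could not change the members, which have 1 probe set each. Subtracting the median of the negative controls, with a floor of 20, gave 6 members lower, a median of -0.45 and 3 members past 2-fold lower. It left 3 of 9 comparison lists with a negative median, where 7 had one, because many dim genes were set to the floor on both arrays. Setting signals under the controls' 95th percentile to that percentile left 1 member (Cd79a) past 1.5-fold and 1 past 2-fold lower, and a median of -0.096. By construction, -0.096 is then the value of each gene under the limit on both arrays, including Blk, whose difference turned from 0.38 to -0.096. A filter on dim genes leaves fewer members: the median was -0.87 over 5 members with a mean signal at or over the gene median, and -0.61 over 6 whose brighter array reached it. Under these filters the median of the B lineage transcription factors turned from -0.56 to 0.16 in both cases, with 9 genes left. With the 99th percentile of the controls, 916.9 and 855.1, 0 members exceeded it on either array, where 2 and 1 exceeded the 95th. With the 95th percentile of the 23 antigenomic background controls, 201.4 and 211.6, 1 member (Cd79a) exceeded it without and 0 with cholesterol. No paired analysis was possible because each group holds 1 array, and for the same reason no replicate could be left out. With 1 array per condition, no difference here has an error, also above the control limit. For members under that limit, low signal over background makes the sizes of differences more uncertain still.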
